A study of Mus musculus with 6 samples.

Results

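The enzymes described here build, extend and cap the sugar chains of mucins and of other glycoproteins and glycolipids, or supply the sialic acid and sulfate those steps use. They were taken from the deposited RNA-seq table as the protein-coding genes whose symbols begin with Galnt, C1galt, Gcnt, B3gnt, B3galt, B4galt, St3gal, St6gal, St6galnac, St8sia, Fut or Chst and a number, together with Nans, Cmas, Gne, Slc35a1, Papss1 and Papss2. The rule used no expression value, but it was chosen with earlier results of these data known. It gave 92 of the 36977 genes in the table, under 91 symbols, because St6galnac2 is listed under 2 identifiers that overlap on the minus strand of chromosome 11. Of these, 60 had a mean of at least 0.5 FPKM (a fragment count divided by transcript length and by the library's mapped fragments) over the 6 libraries and were tested among 14611 genes, and 32 lay below. B3gnt8 was the lowest member inside that limit at a mean of 0.511 FPKM, and B4galt2 was the highest outside it at 0.490 FPKM. Of the tested members, 6 had a group mean of 0.5 FPKM or more in the DSS+DCA group alone (B3gnt8, Chst11, Chst14, Galnt18, St3gal2 and St3gal5) and 1 in the DSS group alone (Galnt5).

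The libraries came from colonic tissue of mice whose colitis was brought on with dextran sodium sulfate (DSS), a sulfated polysaccharide that injures the colonic lining. The DSS+DCA group (3 libraries, replicates 1, 2 and 4) is labelled as given DSS and deoxycholic acid (DCA), a secondary bile acid that gut bacteria make from cholic acid, and the DSS group (3 libraries, replicates 1, 2 and 4) as given DSS. Both groups carry the genotype label WT, and the protocol, worded alike for every sample, gives DSS at 2% during 7 days, with DCA then delivered as an enema. The sources used here state no strain, sex or age, nor what DSS mice were given instead of DCA, and nothing ties each library to a separate animal, so p-values measure the spread among these libraries, which may be technical.

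Mucin-type sugar chains begin when an enzyme of the Galnt family joins N-acetylgalactosamine to serine or threonine in the Golgi. Galactose or N-acetylglucosamine is then added to form a core, further galactose and N-acetylglucosamine lengthen the chain, and sialic acid, fucose or sulfate caps it. In the colon such chains make up much of the mass of Muc2, the gel-forming mucin that goblet cells secrete, and of the membrane mucins of colonocytes. Colonic mucins of the mouse are rich in sulfate and sialic acid, and their cores are built by C1galt1 (core 1) and B3gnt6 (core 3).

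Several properties of the libraries bear on every value that follows. Mitochondrial transcripts made up 30.5%, 47.6% and 46.7% of the FPKM sum in DSS+DCA replicates 1, 2 and 4, and 29.4% to 31.4% in the DSS libraries. Protein-coding genes outside the mitochondrial genome took 46.0%, 20.9% and 24.2% in the DSS+DCA replicates and 44.8% to 46.0% in the DSS libraries. DSS replicate 4 lay close to the mean of DSS replicates 1 and 2: over 1116 genes of at least 30 FPKM its median deviation from their weighted mean was 0.0475 on the log2 scale, against 0.202 between those 2 libraries. Whether it is an independent library is therefore in doubt, and if it is not, every SD and n given for the DSS group, and the p-values, overstate the precision. The labels name intestinal epithelial cells as the cell type. The epithelial marker list summed to 7718, 4483 and 5302 FPKM in the DSS+DCA replicates and to 9028 to 10833 FPKM in the DSS libraries, and the libraries also held smooth muscle transcripts, which summed to 1501, 94.4 and 1063 FPKM in DSS+DCA and to 43.1, 676 and 342 FPKM in DSS. The number of fragments behind each value is unknown.

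Called members were B3galt5, Chst4, Nans and St3gal6, each lower in DSS+DCA colon (limma, Benjamini-Hochberg adjusted p under 0.05 over all tested genes). They make type 1 chains, sulfate N-acetylglucosamine, synthesize sialic acid and attach it. These 4 are 6.67% of the 60 tested members, and 0.561% of all tested genes were called, 0.431% as lower and 0.130% as higher. The values of the DSS+DCA libraries lay wholly below those of the DSS libraries for 26 of 60 tested members (background 17.8%) and wholly above for 2, Galnt18 and Chst14 (background 5.80%). Galnt18 and Chst14 passed the 0.5 FPKM limit only through the DSS+DCA group, so that count is shaped by the limit. The log2 change, DSS+DCA minus DSS on the log2(FPKM + 1) scale, was below 0 for 43 of 60 members (background 60.5%), with a median of -0.41 over the members and -0.09 over all tested genes. This direction depended on the scaling: with rescaling to protein-coding genes outside the mitochondrial genome 32 of 60 members were below 0 (median -0.08), where the median of all genes was 0.23, and with rescaling to epithelial markers 28 of 60 were (median 0.13), where the median of all genes was 0.41. With epithelial rescaling the medians of GalNAc initiation, core formation and donor supply were above 0 as well. In tissue RNA, fewer cells of a type and less RNA per cell cannot be told apart.

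**Figure D1:**
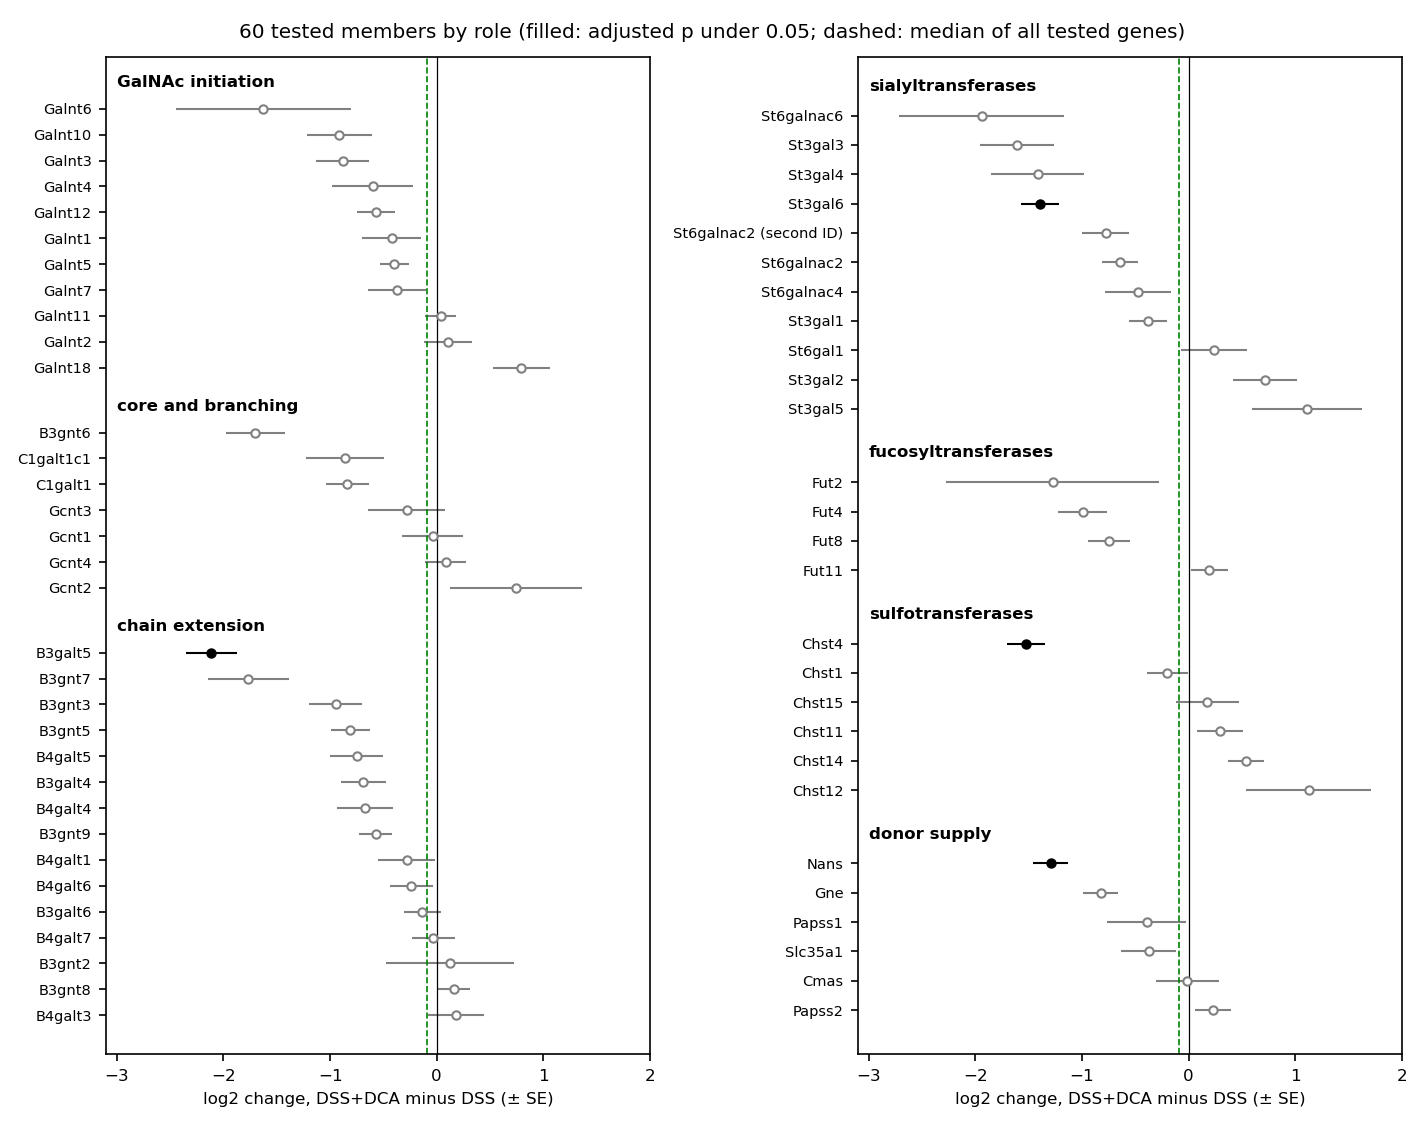
Log2 change, DSS+DCA minus DSS, of the 60 tested members in 7 role groups, with SE as bars; filled points have a limma adjusted p under 0.05 and the dashed line is the median of all tested genes. The 4 filled points, B3galt5, Chst4, St3gal6 and Nans, lie between -2.11 and -1.29, and most sulfotransferases other than Chst4 lie near or right of the dashed line.

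The largest change among the called members was that of B3galt5, which adds galactose in beta-1,3 linkage to N-acetylglucosamine and so makes type 1 chains. B3galt5 (ENSMUSG00000074892; GRCm38, chromosome 16, 96235801 to 96319859, plus strand) had 26.3, 21.1 and 15.0 FPKM in DSS+DCA libraries 1, 2 and 4 and 96.9, 83.3 and 94.2 FPKM in DSS libraries 1, 2 and 4. The lowest DSS library was above the highest DSS+DCA library by a wide margin. The mean was 20.8 ± 5.66 FPKM in DSS+DCA and 91.5 ± 7.21 FPKM in DSS (SD, n = 3 each), 4.39-fold lower, with a log2 change of -2.11 ± 0.24 (SE) and a limma adjusted p of 0.0330.

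St3gal6, which adds alpha-2,3 sialic acid to the galactose of lactosamine chains, was lower by a similar ratio at a much lower level. St3gal6 (ENSMUSG00000022747; chromosome 16, 58468125 to 58524243, minus strand) had 0.983, 0.877 and 0.925 FPKM in DSS+DCA and 4.92, 3.22 and 4.24 FPKM in DSS. The DSS+DCA libraries were nearly equal to each other. The means were 0.929 ± 0.0533 FPKM in DSS+DCA and 4.13 ± 0.858 FPKM in DSS (SD, n = 3 each), 4.44-fold lower, and the log2 change was -1.40 ± 0.18 with a limma adjusted p of 0.0347. Chst4, which transfers sulfate to the 6 position of N-acetylglucosamine and is known in mice for the sulfated mucins of the colon, is the called sulfotransferase. Chst4 (ENSMUSG00000035930; chromosome 8, 110029153 to 110039740, minus strand) had 2.82, 4.12 and 3.62 FPKM in DSS+DCA and 12.1, 12.6 and 11.1 FPKM in DSS. Both groups were tight and apart. The means were 3.52 ± 0.657 FPKM in DSS+DCA and 11.9 ± 0.795 FPKM in DSS (SD, n = 3 each), 3.39-fold lower, with a log2 change of -1.53 ± 0.18 and a limma adjusted p of 0.0333.

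Nans, the synthase that condenses the mannosamine precursor with phosphoenolpyruvate to form sialic acid phosphate, is the called member of the donor supply. Nans (ENSMUSG00000028334; chromosome 4, 46489248 to 46503632, plus strand) had 23.7, 20.5 and 20.7 FPKM in DSS+DCA and 55.4, 53.0 and 54.9 FPKM in DSS. Replicates within each group differed little. The means were 21.6 ± 1.79 FPKM in DSS+DCA and 54.4 ± 1.24 FPKM in DSS (SD, n = 3 each), 2.51-fold lower, with a log2 change of -1.29 ± 0.16 and a limma adjusted p of 0.0347.

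The calls of these 4 genes were not kept under every setting. Without DSS+DCA replicate 4, or without DSS replicate 1, 2 or 4, limma called 0 of the members. In that order, 22 of 58, 23 of 61, 22 of 61 and 21 of 60 members had an unadjusted p under 0.05. So did 1858 of 14561, 1498 of 14730, 1607 of 14641 and 1407 of 14689 of all genes. Over those runs the adjusted p of the 4 genes lay between 0.0747 and 0.212. Without DSS replicate 4 the log2 changes were -2.09 for B3galt5, -1.37 for St3gal6, -1.58 for Chst4 and -1.29 for Nans. In DSS+DCA replicate 1, whose mitochondrial share was like that of the DSS libraries, the log2 ratio of FPKM + 1 to the DSS mean was -1.75 for B3galt5, -1.36 for St3gal6, -1.76 for Chst4 and -1.17 for Nans. Epithelial markers were also lower in DSS+DCA, with a median log2 change of -0.80 over 15 genes and 0 called. With each library rescaled to equal epithelial marker levels, the median of all tested genes moved to 0.41. Then 3 members were called lower (B3galt5, St3gal6 and B3gnt6) and 2 higher (Chst14 and Papss2). Of all 14611 tested genes, 69 were called lower and 907 higher in that setting. Chst14 passed the 0.5 FPKM limit only through the DSS+DCA group. With rescaling to protein-coding genes outside the mitochondrial genome the median of all tested genes moved to 0.23. There 1 member, B3galt5, was called, and 123 of all tested genes. Relative to the median of all genes, the changes with epithelial rescaling were -1.84 for B3galt5, -1.34 for St3gal6, -1.32 for Chst4 and -1.02 for Nans. Without rescaling they were -2.02, -1.31, -1.44 and -1.20 in the same order. This rescaling divides a library by a factor common to all genes, which shifts most genes alike. The likeness of the relative values therefore follows largely from the method and is a description only. The part of cell composition in these values was not tested.

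**Figure D2:**
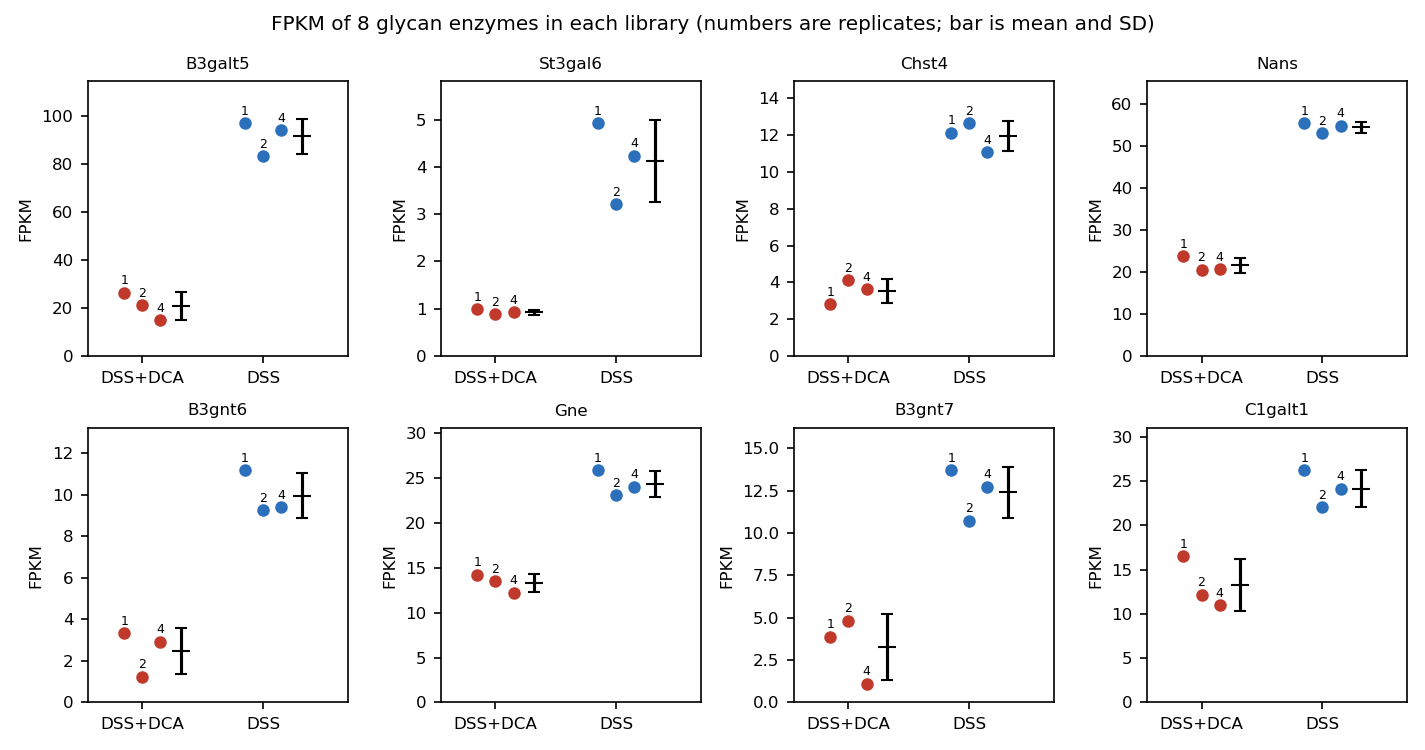
FPKM per library (points) for 8 members, with group mean and SD, DSS+DCA left of DSS. B3galt5, Chst4, Nans and St3gal6 show DSS+DCA libraries below all DSS libraries, and so do B3gnt6, Gne, B3gnt7 and C1galt1, which were not called.

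Promoter windows of 250 bases before to 50 bases after the annotated start were taken from RefSeq (GRCm38.p6) for 70 of the 91 symbols, in 94 windows. B3galt5 has 3 windows, Chst4 has 1 and St3gal6 has 2, while Nans, which was also called, has no window. The 2 B3galt5 windows with a match to a searched letter pattern are shown, with the Chst4 window and 1 St3gal6 window. They are given so that these called genes, without Nans, can be compared. The third B3galt5 window and both St3gal6 windows hold no match, nor does that of Chst4. Capitals mark a match. The first B3galt5 window, chr16:96235551-96235850 on the plus strand, holds TTCNNNGAA, the pattern of STAT factors, and the second, chr16:96273263-96273562 on the plus strand, holds CCACGTG, an E-box, in overlapping matches on both strands. The Chst4 window is chr8:110039285-110039584 and the St3gal6 window shown is chr16:58524204-58524503, both on the minus strand, all written 5′ to 3′ along the gene.
B3galt5 first start: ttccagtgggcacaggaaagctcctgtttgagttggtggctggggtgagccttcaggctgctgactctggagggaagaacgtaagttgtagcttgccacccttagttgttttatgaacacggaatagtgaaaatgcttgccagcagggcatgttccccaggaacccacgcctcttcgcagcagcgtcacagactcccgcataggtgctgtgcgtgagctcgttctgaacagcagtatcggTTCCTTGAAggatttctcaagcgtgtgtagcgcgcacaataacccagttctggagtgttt
B3galt5 second start: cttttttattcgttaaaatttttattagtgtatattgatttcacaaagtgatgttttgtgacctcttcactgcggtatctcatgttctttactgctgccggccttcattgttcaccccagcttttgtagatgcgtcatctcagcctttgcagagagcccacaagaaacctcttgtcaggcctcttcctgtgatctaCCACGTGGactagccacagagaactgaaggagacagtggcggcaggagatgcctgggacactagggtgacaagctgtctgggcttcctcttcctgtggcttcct
Chst4: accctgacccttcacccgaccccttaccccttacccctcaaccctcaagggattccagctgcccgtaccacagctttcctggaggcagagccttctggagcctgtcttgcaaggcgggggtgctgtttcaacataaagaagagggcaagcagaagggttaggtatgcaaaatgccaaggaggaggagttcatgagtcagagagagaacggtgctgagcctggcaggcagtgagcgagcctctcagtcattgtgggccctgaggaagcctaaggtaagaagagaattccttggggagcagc
St3gal6: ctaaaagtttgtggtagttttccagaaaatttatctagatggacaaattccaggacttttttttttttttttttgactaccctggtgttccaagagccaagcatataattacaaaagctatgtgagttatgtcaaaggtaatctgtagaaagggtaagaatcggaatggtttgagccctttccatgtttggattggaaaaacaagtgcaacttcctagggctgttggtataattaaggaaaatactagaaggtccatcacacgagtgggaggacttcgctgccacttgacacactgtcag
Searched on both strands, TGACGTGG (unfolded protein response element) lay in 0 of the 94 member windows and in 0.676% of all 32851 windows, and CCACGTG in 4 member windows (4.26%) and 3.88% of all. TTTATNG (CDX factors) lay in 5 member windows (5.32%) and 10.9% of all, and TTCNNNGAA in 4 (4.26%) and 8.30% of all. No window held both of the first pair at overlapping positions. A match is a description of letters in the window.

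Initiation is carried out by the Galnt enzymes, of which 17 were listed and 11 tested. Their summed level was 146, 82.2 and 80.2 FPKM in DSS+DCA and 157, 149.8 and 159 FPKM in DSS. Of the 11, 8 had a log2 change below 0 (background 60.5%), with a median of -0.42 and none called. Galnt12, most abundant of the family here, had 30.2, 29.4 and 28.5 FPKM in DSS+DCA and 49.5, 37.9 and 45.7 FPKM in DSS, without overlap (log2 change -0.57 ± 0.18, limma adjusted p = 0.199). Galnt3 had 7.87, 4.57 and 3.93 FPKM in DSS+DCA and 11.1, 9.79 and 10.7 FPKM in DSS, also without overlap (-0.88 ± 0.25, limma adjusted p = 0.171). Galnt10 had 10.7, 4.03 and 7.23 FPKM in DSS+DCA and 13.3, 13.97 and 14.01 FPKM in DSS (-0.91 ± 0.30, limma adjusted p = 0.221). Galnt4, a follow-up enzyme that acts on partly glycosylated peptides, had 33.4, 10.5 and 16.3 FPKM in DSS+DCA and 25.4, 28.8 and 29.4 FPKM in DSS, and its groups overlapped (limma adjusted p = 0.462). Galnt18 was separated in the other direction, with 1.89, 0.408 and 1.39 FPKM in DSS+DCA and 0.281, 0.253 and 0.159 FPKM in DSS (0.80 ± 0.27, limma adjusted p = 0.230).

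Cores are formed by the synthases of core 1 and core 3 and by the Gcnt branching enzymes. B3gnt6, the core 3 synthase, had 3.33, 1.24 and 2.92 FPKM in DSS+DCA and 11.2, 9.27 and 9.41 FPKM in DSS, 3.99-fold lower in the mean (2.50 ± 1.11 FPKM in DSS+DCA and 9.96 ± 1.08 FPKM in DSS, SD, n = 3 each). Its log2 change of -1.70 ± 0.27 missed the threshold in limma (adjusted p = 0.0555), although all DSS+DCA libraries were below all DSS libraries, and it was called in 7 of 15 alternatives. C1galt1, the core 1 synthase, had 16.5, 12.2 and 11.0 FPKM in DSS+DCA and 26.3, 22.1 and 24.1 FPKM in DSS, a 1.82-fold lower mean (-0.84 ± 0.20, limma adjusted p = 0.135). C1galt1c1, the chaperone C1galt1 needs, had 18.4, 5.91 and 9.97 FPKM in DSS+DCA and 21.7, 17.9 and 19.5 FPKM in DSS, with overlap (limma adjusted p = 0.298). Gcnt3, the branching enzyme that makes core 2 and core 4, had 53.0, 22.0 and 56.8 FPKM in DSS+DCA and 45.8, 53.2 and 49.6 FPKM in DSS. The DSS+DCA values bracketed the DSS values (log2 change -0.28 ± 0.36, limma adjusted p = 0.729), and the sign of this change turned under other scalings. The 7 tested core and branching members had a median of -0.28, with 5 below 0 (background 60.5%) and 0 called. That median was 0.013 without DSS+DCA replicate 2, 0.16 with rescaling to protein-coding genes and 0.41 with rescaling to epithelial markers.

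Chain extension had the highest mean summed level of the 7 roles. Of its 15 tested members, 8 were wholly lower in DSS+DCA (background 17.8%) and 0 wholly higher (background 5.80%). Their summed level was 203, 130.4 and 137 FPKM in DSS+DCA and 312, 296 and 307 FPKM in DSS, and the median log2 change was -0.57. B3gnt3, which lengthens the core 1 branch with N-acetylglucosamine, had 69.5, 39.1 and 44.7 FPKM in DSS+DCA and 99.9, 92.0 and 97.6 FPKM in DSS (-0.95 ± 0.25, limma adjusted p = 0.158). B3gnt7, which extends sulfated lactosamine chains such as keratan sulfate, had 3.89, 4.83 and 1.10 FPKM in DSS+DCA and 13.7, 10.7 and 12.7 FPKM in DSS. That is 3.79-fold lower in the mean (-1.77 ± 0.38, limma adjusted p = 0.112), with the lowest value in DSS+DCA replicate 4. B3gnt5, which begins lacto-series glycolipids, had 1.09, 0.520 and 0.726 FPKM in DSS+DCA and 2.08, 1.78 and 2.46 FPKM in DSS (-0.81 ± 0.18, limma adjusted p = 0.121). B4galt1, the beta-1,4 galactosyltransferase of lactosamine chains, which was named after its values were seen, had 32.1, 16.8 and 17.4 FPKM in DSS+DCA and 25.8 FPKM in each DSS library (-0.28 ± 0.27, limma adjusted p = 0.622). The other 4 members without overlap in this role, B4galt4, B4galt5, B3galt4 and B3gnt9, had log2 changes between -0.75 and -0.57. B4galt7 and B3galt6, which build the linkage of glycosaminoglycans to protein, overlapped between groups (limma adjusted p = 0.951 and 0.736).

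Among sialyltransferases, 11 of 21 were tested, 8 had a log2 change below 0 (background 60.5%; median -0.64) and 6 were wholly lower (background 17.8%). The group's summed level was 107, 77.9 and 46.2 FPKM in DSS+DCA and 252, 148 and 165 FPKM in DSS. St3gal4, which like St3gal6 sialylates galactose on lactosamine, had 38.4, 43.1 and 13.6 FPKM in DSS+DCA and 95.1, 61.3 and 79.5 FPKM in DSS, without overlap (-1.42 ± 0.43, limma adjusted p = 0.197). St3gal3, of the same linkage, had 7.49, 6.50 and 6.64 FPKM in DSS+DCA and 35.8, 13.1 and 25.8 FPKM in DSS, again without overlap. Its DSS libraries were far more spread (24.9 ± 11.4 FPKM) than its DSS+DCA libraries (6.88 ± 0.536 FPKM, SD, n = 3 each), and the limma adjusted p was 0.112. St6galnac6 had 40.0, 13.7 and 3.62 FPKM in DSS+DCA and 92.2, 50.3 and 32.1 FPKM in DSS, and its groups overlapped (limma adjusted p = 0.284). St6galnac2, an alpha-2,6 sialyltransferase of core O-glycans, had 5.95, 5.05 and 6.86 FPKM in DSS+DCA and 10.2, 9.25 and 9.93 FPKM in DSS under its main identifier (-0.64 ± 0.17, limma adjusted p = 0.161). Reads could be shared with the overlapping second identifier, which had 1.62, 2.69 and 1.85 FPKM in DSS+DCA and 5.47, 3.28 and 4.03 FPKM in DSS. Both identifiers, each wholly lower, enter the counts of this role and of all tested members, so these counts hold St6galnac2 under 2 entries. St6gal1, which makes alpha-2,6 sialic acid on N-glycans, had 3.46, 0.958 and 1.56 FPKM in DSS+DCA and 1.68, 1.01 and 1.52 FPKM in DSS (limma adjusted p = 0.730). St6galnac1, which makes sialyl-Tn, was listed at 0 in all DSS+DCA libraries and in DSS replicates 1 and 4, and at 0.0284 FPKM in DSS replicate 2.

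Fucosyltransferases held the least even member of all 60 by within-group spread. Fut2, which adds the alpha-1,2 fucose of secretor antigens, had 19.6, 59.5 and 3.12 FPKM in DSS+DCA and 63.5, 15.7 and 66.6 FPKM in DSS. High and low libraries occurred in both groups (log2 change -1.28 ± 1.00, limma adjusted p = 0.545). Fut8, the core fucosyltransferase of N-glycans, had 4.06, 3.47 and 2.81 FPKM in DSS+DCA and 7.63, 5.32 and 6.50 FPKM in DSS (-0.75 ± 0.20, limma adjusted p = 0.158). Fut4, an alpha-1,3 fucosyltransferase of Lewis x structures, had 2.55, 1.31 and 1.20 FPKM in DSS+DCA and 4.42, 4.68 and 3.62 FPKM in DSS, without overlap (-0.99 ± 0.23, limma adjusted p = 0.124). The 4 tested members had a median of -0.87 and 0 were called.

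Among the sulfotransferases, 4 of 6 tested members had a log2 change above 0, and Chst4 and Chst1 were below (median 0.24). Of those 4, Chst11 and Chst14 passed the limit only through the DSS+DCA group. The median was -0.20 with a limit of 2 FPKM and -0.11 without DSS+DCA replicate 1, so its sign is not settled. Chst14, the dermatan 4-O-sulfotransferase, had 1.28, 0.623 and 0.968 FPKM in DSS+DCA and 0.360, 0.245 and 0.403 FPKM in DSS, the second member wholly higher (0.54 ± 0.17, limma adjusted p = 0.208). Chst12, a chondroitin 4-O-sulfotransferase, had 6.30, 0.492 and 4.05 FPKM in DSS+DCA and 0.258, 1.60 and 0.616 FPKM in DSS, and its groups overlapped (limma adjusted p = 0.381). In both, DSS+DCA replicate 2 was the lowest of its group, and that library had the least smooth muscle, nerve and plasma cell marker signal of the 3: its nerve and glia list summed to 5.43 FPKM, against 72.6 FPKM in replicate 1 and 50.8 FPKM in replicate 4, and the DSS libraries held 2.36 to 15.8 FPKM. The part of these cell types in the sulfotransferase values was not tested. Chst5, an intestinal N-acetylglucosamine 6-O-sulfotransferase, was listed at 0.681, 0 and 0.103 FPKM in DSS+DCA and at 0, 0 and 0.0550 FPKM in DSS.

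A few members, named after their values were seen, had replicates far apart within a group. Galnt6, an initiating enzyme, had 26.0, 14.7 and 1.33 FPKM in DSS+DCA and 29.1, 31.1 and 29.2 FPKM in DSS, with the lowest value in DSS+DCA replicate 4 (-1.63 ± 0.82, limma adjusted p = 0.367). St3gal5, which makes the ganglioside GM3, had 1.16, 0.187 and 4.64 FPKM in DSS+DCA and 0.0580, 0.263 and 0.0797 FPKM in DSS. The mean was 14.9-fold higher in DSS+DCA, yet replicate 2 of that group lay below DSS replicate 2 (1.11 ± 0.51, limma adjusted p = 0.334). St3gal2, which sialylates core 1 chains and gangliosides, had 2.41, 0.445 and 1.44 FPKM in DSS+DCA and 0.329, 0.457 and 0.400 FPKM in DSS, with the same library low (limma adjusted p = 0.299). B3gnt2, a poly-lactosamine synthase, had 4.19, 3.94 and 11.9 FPKM in DSS+DCA and 3.50, 14.0 and 2.76 FPKM in DSS, with 1 high library in each group (limma adjusted p = 0.933).

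**Figure D3:**
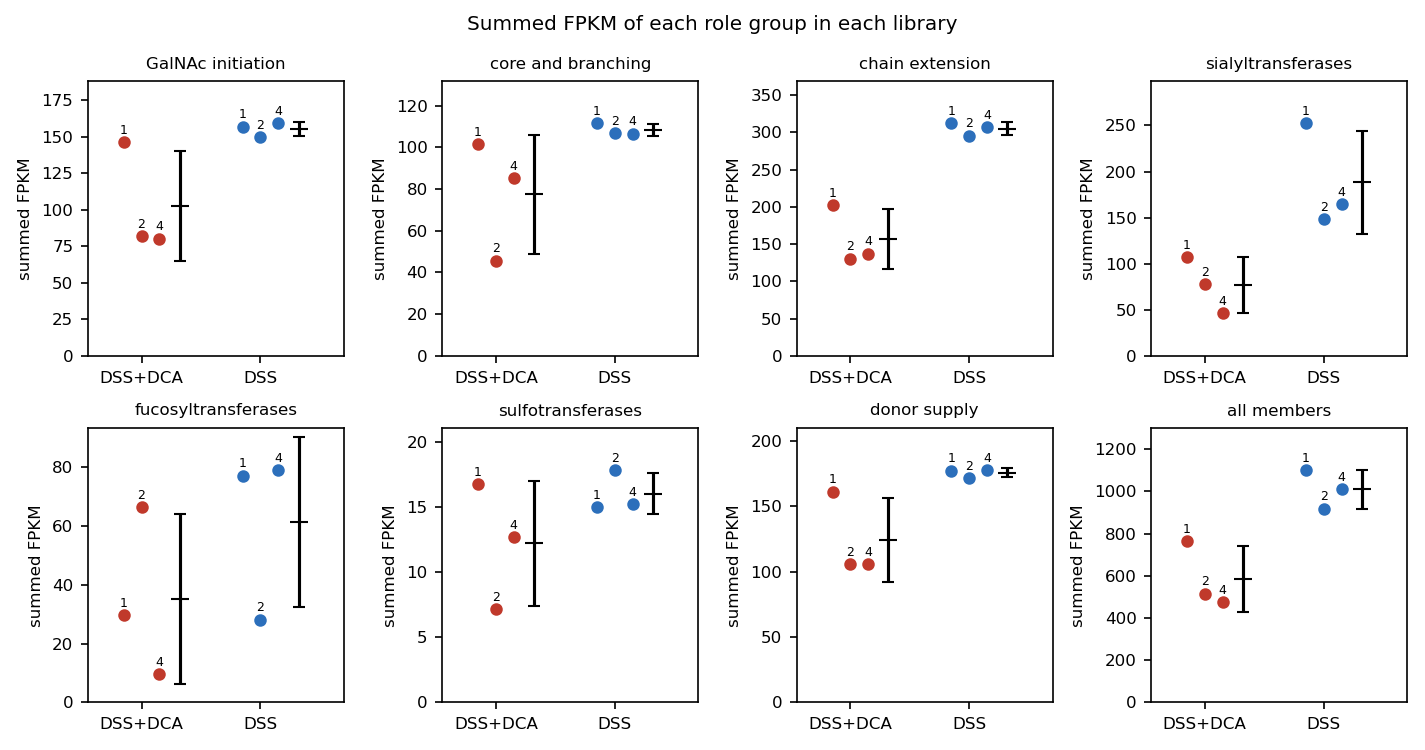
Summed FPKM of each role group and of all members per library, with DSS+DCA left of DSS. Over all members the sum was 765, 515 and 477 FPKM in DSS+DCA and 1102, 918 and 1009.7 FPKM in DSS, and the fucosyltransferase sum follows the scattered Fut2 values.

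Sialic acid and sulfate donors are supplied by 6 members, of which Nans alone was called. Gne, the rate-limiting enzyme that makes the mannosamine precursor ahead of Nans, had 14.2, 13.5 and 12.2 FPKM in DSS+DCA and 25.9, 23.1 and 24.0 FPKM in DSS, without overlap (-0.82 ± 0.16, limma adjusted p = 0.0908). Cmas, which activates sialic acid to its CMP form after Nans, had 39.3, 25.7 and 17.1 FPKM in DSS+DCA and 27.5, 24.3 and 26.7 FPKM in DSS, and the log2 change was -0.011 ± 0.30 (limma adjusted p = 0.988). Slc35a1, the Golgi transporter of CMP-sialic acid, had 39.6, 23.0 and 21.1 FPKM in DSS+DCA and 33.0, 36.4 and 36.0 FPKM in DSS, with overlap (limma adjusted p = 0.498). Papss2, a synthase of the sulfate donor PAPS, had 17.2, 13.9 and 14.6 FPKM in DSS+DCA and 13.9, 11.9 and 12.7 FPKM in DSS (0.23 ± 0.17, limma adjusted p = 0.524). Papss1, its paralogue, had 26.9, 8.90 and 19.8 FPKM in DSS+DCA and 21.3, 22.9 and 23.4 FPKM in DSS. Cmas and Papss1 were outside the naming rule and were added because they complete these pathways, after their values were seen.

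Ratios within a library do not depend on its total, and 5 were chosen after the values were seen, each with a strongly lower member on top, so that their direction follows from the choice and they are a description only. Nans over Cmas was 0.604, 0.797 and 1.21 in DSS+DCA and 2.02, 2.18 and 2.06 in DSS. B3galt5 over B4galt1, the type 1 against type 2 galactosyltransferase, was 0.821, 1.26 and 0.865 in DSS+DCA and 3.75, 3.22 and 3.65 in DSS. B3gnt6 over C1galt1, core 3 against core 1 synthase, was 0.202, 0.102 and 0.265 in DSS+DCA and 0.426, 0.420 and 0.390 in DSS. The ratio of Chst4 to Papss2 was 0.164 to 0.298 in DSS+DCA and 0.870 to 1.07 in DSS, and that of St3gal6 to St3gal1 was 0.225 to 0.322 in DSS+DCA and 0.774 to 0.949 in DSS.

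**Figure D4:**
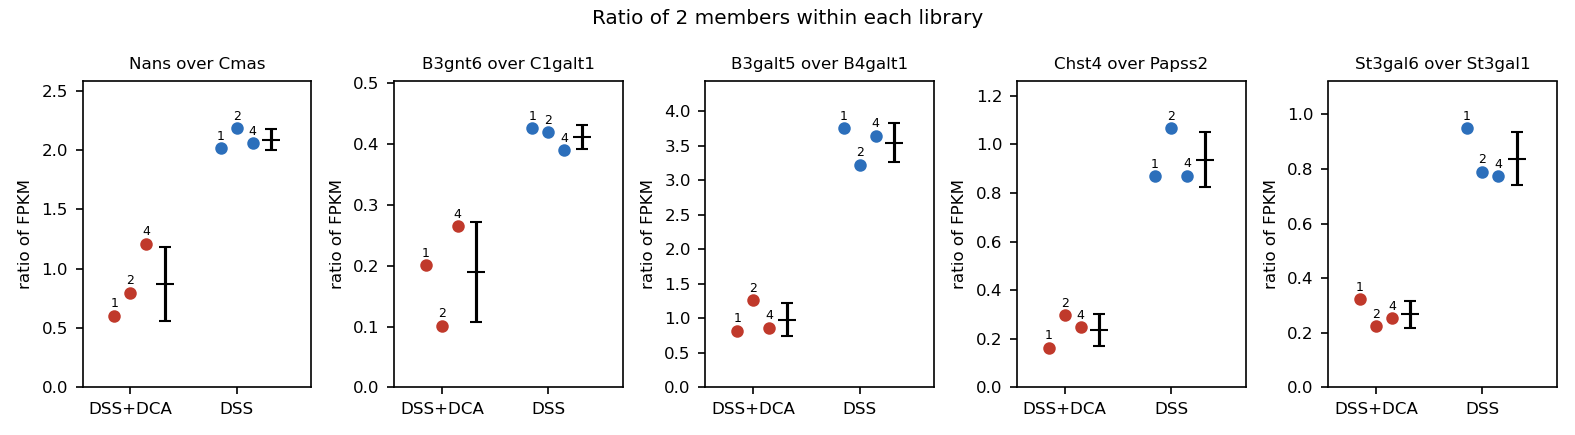
Ratio of FPKM between 2 members in each library, DSS+DCA left of DSS. In all 5 ratios the 3 DSS+DCA libraries lie below the 3 DSS libraries; for B3galt5 over B4galt1 they lie between 0.821 and 1.26, against 3.22 to 3.75 in DSS.

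The members are next split by mean level over the 6 libraries. Of 23 members with a mean of 10 FPKM or more, 22 had a log2 change below 0 (median -0.82), where 81.5% of 3577 genes of that level did (median -0.33). Of 19 members between 2 and 10 FPKM, 15 were below 0 (median -0.64), against 62.2% of all genes there. Of 18 members between 0.5 and 2 FPKM, 6 were below 0 (median 0.17), against 43.5% of all genes there; 6 of the 18 passed the limit only through the DSS+DCA group, which moves this class toward changes above 0. Among the 32 members under the limit, 26 had the higher mean in DSS+DCA (73.9% of such genes), 16 were highest in DSS+DCA replicate 1 (19.3%), 9 were wholly higher in DSS+DCA (background 8.86%) and 0 wholly lower (2.10%). Their highest single value was 1.32 FPKM, for B4galt2 in DSS+DCA replicate 1.

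Other steps of the pathway were read from lists of genes outside the enzyme families. Over all tested genes, 60.5% were below 0 in log2 change and 0.561% were called. Of the nucleotide sugar synthesis list, 0 of 25 tested genes were called and 18 were below 0. Pmm2, a phosphomannomutase, had a log2 change of -0.64 (limma adjusted p = 0.170). Transporters of nucleotide sugars and sulfate had 11 of 13 below 0 and 0 called, with Slc35b1 and Slc35c1, the GDP-fucose transporter, both at -0.86 (limma adjusted p = 0.150 and 0.217). N-glycan branching had 8 of 11 below 0 and 0 called, and Mgat1, its first N-acetylglucosaminyltransferase, had the opposite sign at 1.80 (limma adjusted p = 0.112), with 3.48, 9.48 and 4.47 FPKM in DSS+DCA and 1.56, 0.900 and 0.243 FPKM in DSS. Mgat4c, of the same list, was at -1.12 (limma adjusted p = 0.174). Sialidases and other glycan-removing genes had 10 of 11 below 0 and 0 called, with Fuca1, a lysosomal fucosidase, at -0.73 (limma adjusted p = 0.212). Other capping enzymes had 9 of 19 below 0 and 0 called, Rfng and B4galnt1 having the smallest p-values (limma adjusted p = 0.240 and 0.260). Of the 7 tested mucin backbones all had a log2 change below 0 and 1 was called: Muc4, a membrane mucin, had 3.66, 3.01 and 2.42 FPKM in DSS+DCA and 12.2, 8.36 and 10.6 FPKM in DSS (-1.49 ± 0.21, limma adjusted p = 0.0370). Muc1, another membrane mucin, was at -1.09 (limma adjusted p = 0.1002).

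Markers of cell types and of colon position were read in the same libraries. Over all tested genes, 0.431% were called lower and 0.130% higher, 17.8% were wholly lower and 5.80% wholly higher, and 60.5% were below 0. Goblet cell markers summed to 1594, 1101 and 3293 FPKM in DSS+DCA and 7343, 5763 and 6803 FPKM in DSS, all 14 below 0 in log2 change (median -1.59) and 3 called lower. Absorptive colonocyte markers summed to 7878, 3574 and 6085 FPKM in DSS+DCA and 7458, 10395 and 8843 FPKM in DSS, with 11 of 12 below 0 and 1 called lower. Of 10 tested colon position genes 3 were called lower, Hoxa13, Hoxa10 and Hoxa9 (log2 changes -3.32, -2.55 and -2.83, limma adjusted p = 0.0252, 0.0364 and 0.0102). Of the other 7, 2 had a log2 change above 0, the higher at 1.69, and 1 was wholly higher in DSS+DCA. Fibroblast markers had 4 of 8 below 0 and 4 above (median 0.27), with 1 called higher. Smooth muscle and nerve lists had 8 of 8 above 0 each, with 0 called and medians of 1.26 and 1.10. Adipocyte markers had a median of 1.73, with 4 of 4 above 0, 3 wholly higher and 0 called. B and plasma cell markers had a median of 1.37 (4 of 5 above 0), and T cell markers 0.52 with 4 of 6 wholly higher, and 0 were called in either list. Endothelial, macrophage and neutrophil lists had medians of 0.32, 0.10 and -0.035 with 0 called, and 0 marker genes were at 0 in all libraries. The part of any of these in the member values was not tested.

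Of the 92 members, 16 (17.4%) were marked significant in the authors' deposited table, against 3.17% of all genes. Of the 60 members tested here 13 were so marked, against 4.71% of the genes tested here. Among the 16, the authors' deposited table gives 9 as lower (background 0.990%) and 7 as higher (background 2.19%). Of all genes so marked, 0 had an absolute log2 fold under 1, whereas the limma calls used no minimum fold. B3gnt3, C1galt1, Galnt3 and Gne had authors' q-values of 0.0129, 0.0268, 0.0321 and 0.0394 and were not marked. The 5 smallest q-values among members there, all for lower genes, were those of B3galt5 (1.26e-11), St3gal6 (1.26e-08), Nans (1.14e-05), B3gnt6 (2.68e-05) and Chst4 (0.000181). The authors' deposited table marks Galnt15, St3gal5, Chst3, Galnt18, St3gal2, St8sia3 and Chst14 as higher. Of these, Galnt15, Chst3 and St8sia3 lay below the expression limit used here. St3gal5, Galnt18, St3gal2 and Chst14 passed it only through the DSS+DCA group, with DSS means of 0.134, 0.231, 0.396 and 0.336 FPKM. Each of the 7 thus had a DSS mean under 0.5 FPKM, and the groups of St3gal5 and St3gal2 overlapped.

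**Figure D5:**
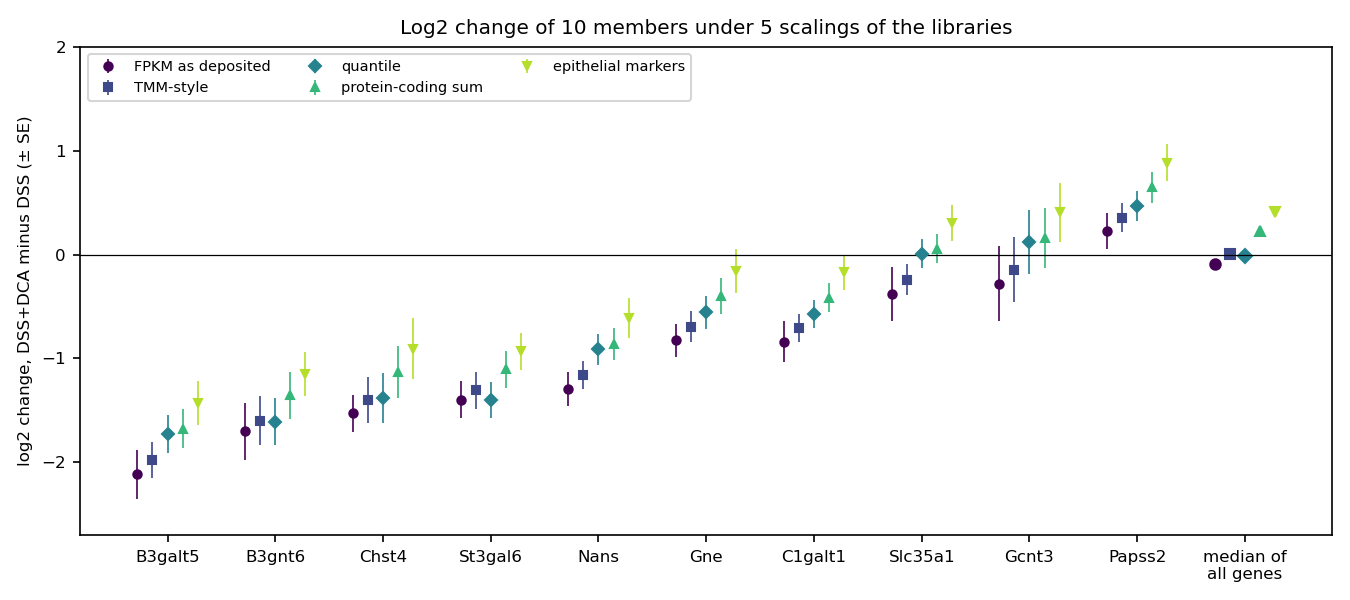
Log2 change, DSS+DCA minus DSS, of 10 members and the median of all tested genes under 5 scalings of the libraries. The 5 members B3galt5, B3gnt6, Chst4, St3gal6 and Nans stay below 0 and below the median of all genes in each scaling, while Gcnt3 and Slc35a1 change sign. Except with quantiles, a library is scaled by a factor common to all genes. This shifts most genes alike, so the place below that median is largely kept by the method.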

How the data were processed

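Poly(A)-selected RNA of 6 libraries was sequenced as paired reads with dUTP marking of the second strand, per the labels' protocols. Among the tools in the submitters' processing notes are HISAT2 2.2.1 and StringTie 2.1.6, then cutadapt 1.9, edgeR and DESeq2, with no role for any of them. Neither a genome build nor the handling of strand is given in the sources used here. FPKM by gene and library are deposited, per the file headers. The deposited columns also hold the authors' fold as a ratio, its log2, and the p-values and q-values of their own comparison, per the file headers, and these serve here only as a description of the authors' calls. Low FPKM did not resolve into whole fragments, so depth is unknown and no count test was run. At the best of many steps tried, 36.0% to 40.9% lay within 0.05 fragments of a whole number, so most did not. Chance gives 10% at a fixed step, which is not a like value for the best of many.

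FPKM were transformed to log2(FPKM + 1). Genes averaging at least 0.5 FPKM entered limma 3.58.1 in R 4.3.3 (lmFit, eBayes with a trend, two-sided, no covariates), and p-values were adjusted by Benjamini-Hochberg over all of them. Log2 changes on this scale understate the change of low genes; folds are ratios of mean FPKM. The procedure was tested on simulated data. Positions came from GENCODE M21 (GRCm38), matched by identifier. Files were read with pandas 2.3.3 and the data.table package (version 1.17.8), and matplotlib 3.10.9 drew the figures.

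Members, role groups, lists and tests were chosen with earlier results of these data known. Members named with all values were the called ones, the 3 of smallest p and 2 of highest mean in each role group, and a list of known mucin enzymes; in each pathway list the called genes and the 2 of smallest p were named. Some genes that this rule took are not reported here. As alternatives, the pseudocount was set to 0.1, the filter was dropped or raised to 2 FPKM, and libraries were scaled by a trimmed mean of M values (TMM-style), by quantiles, to protein-coding genes outside the mitochondrial genome or to epithelial markers. Others were array weights, a replicate block, an adjusted p under 0.1 and leaving out each library.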

Additional observations from a re-analysis of the deposited data

How the results depend on the processing

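The number of members called was 4, and that of all genes 82. The counts of members and of all genes were 0 and 2 with no filter, 4 and 132 with TMM-style scaling, and 1 and 123 with rescaling to protein-coding genes. They were 5 and 976 with rescaling to epithelial markers (69 lower and 907 higher), 44 and 6227 with array weights, and 6 and 230 at an adjusted p under 0.1. With no filter, 32 of 92 members and 3770 of 36977 genes had an unadjusted p under 0.05 in limma. The array weight was 8.08 for DSS replicate 4, whose independence is in doubt, and 0.152 to 3.15 for the other libraries. Same-numbered libraries did not deviate together (correlations of -0.144, -0.170 and 0.0153). With the replicate block limma called 0 members and 1 gene, and 26 of 60 members and 1835 of 14611 genes had an unadjusted p under 0.05. Leaving out 1 library gave 0 to 18 members and 0 to 1321 genes: 18 members without DSS+DCA replicate 1, 6 without DSS+DCA replicate 2, and 0 without each of the other 4 libraries. The causes were not tested. Over 15 alternatives the log2 change ranged from -2.49 to -1.43 for B3galt5, from -2.02 to -0.93 for St3gal6, from -1.75 to -0.91 for Chst4, from -1.36 to -0.61 for Nans and from -2.06 to -1.15 for B3gnt6. Of 417 values of named members under an alternative, 335 kept direction and side of the threshold, 39 gained and 32 lost a call, and 11 reversed. With rescaling to epithelial markers, Galnt12 reversed to 0.12, Galnt4 to 0.068, Gcnt3 to 0.41 and Slc35a1 to 0.31. With rescaling to protein-coding genes, Gcnt3 reversed to 0.16 and Slc35a1 to 0.059, and with quantile normalization Gcnt3 to 0.12 and Slc35a1 to 0.011. Gcnt3 reversed to 0.083 with array weights and to 0.15 without DSS+DCA replicate 2, and St6gal1 to -0.091 without DSS+DCA replicate 1 (-0.091 to 0.50 over the libraries left out).

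Median log2 changes that moved are given by setting. With no filter, the median was 0.037 for GalNAc initiation, -0.24 for chain extension, 0.015 for sialyltransferases, -0.095 for fucosyltransferases and -0.014 for all members. With a mean of at least 2 FPKM it was -0.84 for core and branching, -1.40 for sialyltransferases, -0.20 for sulfotransferases and -0.72 for all members. With a pseudocount of 0.1 it was -1.02 for sialyltransferases and -1.12 for fucosyltransferases. With rescaling to protein-coding genes it was 0.16 for core and branching, -0.25 for chain extension, -0.31 for sialyltransferases, -0.53 for fucosyltransferases, 0.044 for donor supply and -0.081 for all members. With rescaling to epithelial markers it was 0.12 for GalNAc initiation, 0.41 for core and branching, -0.0091 for chain extension, -0.21 for sialyltransferases, -0.34 for fucosyltransferases, 0.29 for donor supply and 0.13 for all members, where the median of all genes was 0.41. For donor supply it was -0.051 with quantile normalization and -0.60 with array weights. Leaving out 1 library gave ranges of -0.69 to -0.29 for GalNAc initiation, -0.52 to 0.013 for core and branching, -0.66 to -0.31 for chain extension, -0.74 to -0.54 for sialyltransferases, -1.03 to -0.44 for fucosyltransferases, -0.11 to 0.45 for sulfotransferases, -0.68 to -0.14 for donor supply and -0.65 to -0.27 for all members.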
